A study of Mus musculus with 9 samples.

Results

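De novo lipogenesis, the making of fatty acids from carbohydrate carbon, was followed through 10 genes for its enzymes and regulators, of 35275 entries in the gene table. The genes were taken by name for their known role, with earlier results of these data known: Acly, Me1, Acaca, Fasn, Elovl6 and Scd1 for the enzymes in pathway order, Srebf1, Mlxipl and Thrsp for the regulators, and Pnpla3 for a lipid droplet protein under lipogenic control. All 10 had counts in all 9 libraries and passed the filter on low counts. The compounds were AdipoRonPEG5, a PEGylated analog, and its parent AdipoRon, which activates adiponectin receptors and is itself a small molecule.

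Liver RNA of C57BL/6 mice was sequenced in 3 libraries from AdipoRonPEG5 treatment, 3 from AdipoRon treatment and 3 from vehicle treatment (PBS). The labels describe a course of 5 days with 2 injections per day and give 5 mg/kg in a sentence that covers PBS too, which does not settle how much of either compound was given. They give neither sex, age, feeding state nor hour of harvest, and they do not say which of the metabolic models in the title these livers came from. Nothing states that the libraries of a group came from separate animals, so that the p-values measure only the spread between these libraries, which may be technical.

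In the liver, carbohydrate carbon leaves the mitochondria as citrate, is split to acetyl-CoA, carboxylated to malonyl-CoA and built into palmitate, which is then elongated and desaturated before it is stored as triglyceride. Insulin drives the pathway largely through the transcription factor SREBP-1c, a product of Srebf1, and glucose through ChREBP, the product of Mlxipl. Adiponectin signalling is known for activating AMP-activated protein kinase, which phosphorylates and inhibits acetyl-CoA carboxylase.

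The promoters of the genes with the largest measured falls for which a sequence was at hand (Elovl6, Thrsp and Fasn), and that of Mlxipl, are shown for the motifs of factors known to act on lipogenic genes. Each window is from RefSeq on GRCm38.p6 and runs from 250 bases before to 50 bases after an annotated start, 5′ to 3′ on the strand of the gene. Capitals mark a CCAAT box (CCAAT, or ATTGG on the other strand) or an E-box (CACGTG); GC boxes are left in lower case. The Elovl6 window lies at chr3:129532136-129532435 on the plus strand, the Thrsp window at chr7:97417501-97417800 on the minus strand, the Fasn window at chr11:120824498-120824797 on the minus strand and the Mlxipl window at chr5:135089640-135089939 on the plus strand.
Elovl6: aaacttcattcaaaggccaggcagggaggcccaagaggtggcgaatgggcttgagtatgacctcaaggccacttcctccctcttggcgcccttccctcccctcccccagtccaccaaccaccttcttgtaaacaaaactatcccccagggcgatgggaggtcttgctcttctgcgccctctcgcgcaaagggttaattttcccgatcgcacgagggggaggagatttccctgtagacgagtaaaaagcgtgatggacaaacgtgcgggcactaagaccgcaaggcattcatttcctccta
Thrsp: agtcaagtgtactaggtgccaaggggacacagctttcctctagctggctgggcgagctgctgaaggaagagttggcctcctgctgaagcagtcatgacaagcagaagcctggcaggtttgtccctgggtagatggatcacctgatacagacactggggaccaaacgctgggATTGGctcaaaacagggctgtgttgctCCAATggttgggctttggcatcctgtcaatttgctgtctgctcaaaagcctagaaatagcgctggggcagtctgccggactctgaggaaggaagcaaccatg
Fasn: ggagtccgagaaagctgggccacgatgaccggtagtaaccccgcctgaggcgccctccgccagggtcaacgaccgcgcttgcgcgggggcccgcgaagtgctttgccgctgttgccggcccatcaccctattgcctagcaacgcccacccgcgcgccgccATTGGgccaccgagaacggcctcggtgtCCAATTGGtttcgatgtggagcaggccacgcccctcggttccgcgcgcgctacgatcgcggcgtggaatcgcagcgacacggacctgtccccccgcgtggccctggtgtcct
Mlxipl: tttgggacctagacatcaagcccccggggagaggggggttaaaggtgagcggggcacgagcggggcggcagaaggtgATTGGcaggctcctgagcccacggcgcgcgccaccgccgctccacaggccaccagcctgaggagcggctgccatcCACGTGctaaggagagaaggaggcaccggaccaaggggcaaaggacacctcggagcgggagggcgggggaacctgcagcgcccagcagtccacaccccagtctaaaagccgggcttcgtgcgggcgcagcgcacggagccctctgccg

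Fasn held 3 CCAAT matches, which begin 90, 62 and 59 bases before the start, the last pair overlapping. Thrsp held 2, beginning 79 and 52 bases before the start. The Mlxipl window held an E-box beginning 98 and a CCAAT match beginning 173 bases before the start. The Elovl6 window held neither of these motifs, no sterol regulatory element (TCACNCCAC) and no GC box (GGGCGG). Across 13 windows of the 9 genes matched in the RefSeq table, on either strand, a CCAAT box was found in 8 windows of 7 genes. A GC box was found in 6 windows of 5 genes. The E-box was found in 1 window, of Mlxipl, and the sterol regulatory element in 1, a further window of Mlxipl. Of all 32851 windows in the table, 37.41% held the CCAAT box, 35.66% the GC box, 7.15% the E-box and 1.24% the sterol regulatory element. These matches describe letters only; an absent match in a window of this length says nothing of the factor.

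With AdipoRonPEG5, 8 of the 10 lipogenic genes were lower than with vehicle and none was higher; with AdipoRon, no gene passed the test in either direction. To pass, a gene needed an adjusted p under 0.05 in edgeR's quasi-likelihood test, with Benjamini-Hochberg adjustment over 13151 genes; levels are TMM-scaled CPM, the counts relative to the library's scaled total. In AdipoRonPEG5 against vehicle 7.63% of all genes tested passed as lower and 9.55% as higher, and the median log2 fold change was -0.80 over the 10 genes and -0.0013 over all genes tested. Every AdipoRonPEG5 library lay below every vehicle library for 9 of the 10, which was so for 17.0% of all genes tested; for 18.2% of them every library lay above. Scaling by total counts in place of TMM kept 8 of the 10 as lower, while the split over all genes moved to 584 lower and 1700 higher, against 1004 lower and 1256 higher with TMM.

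**Figure D1:**
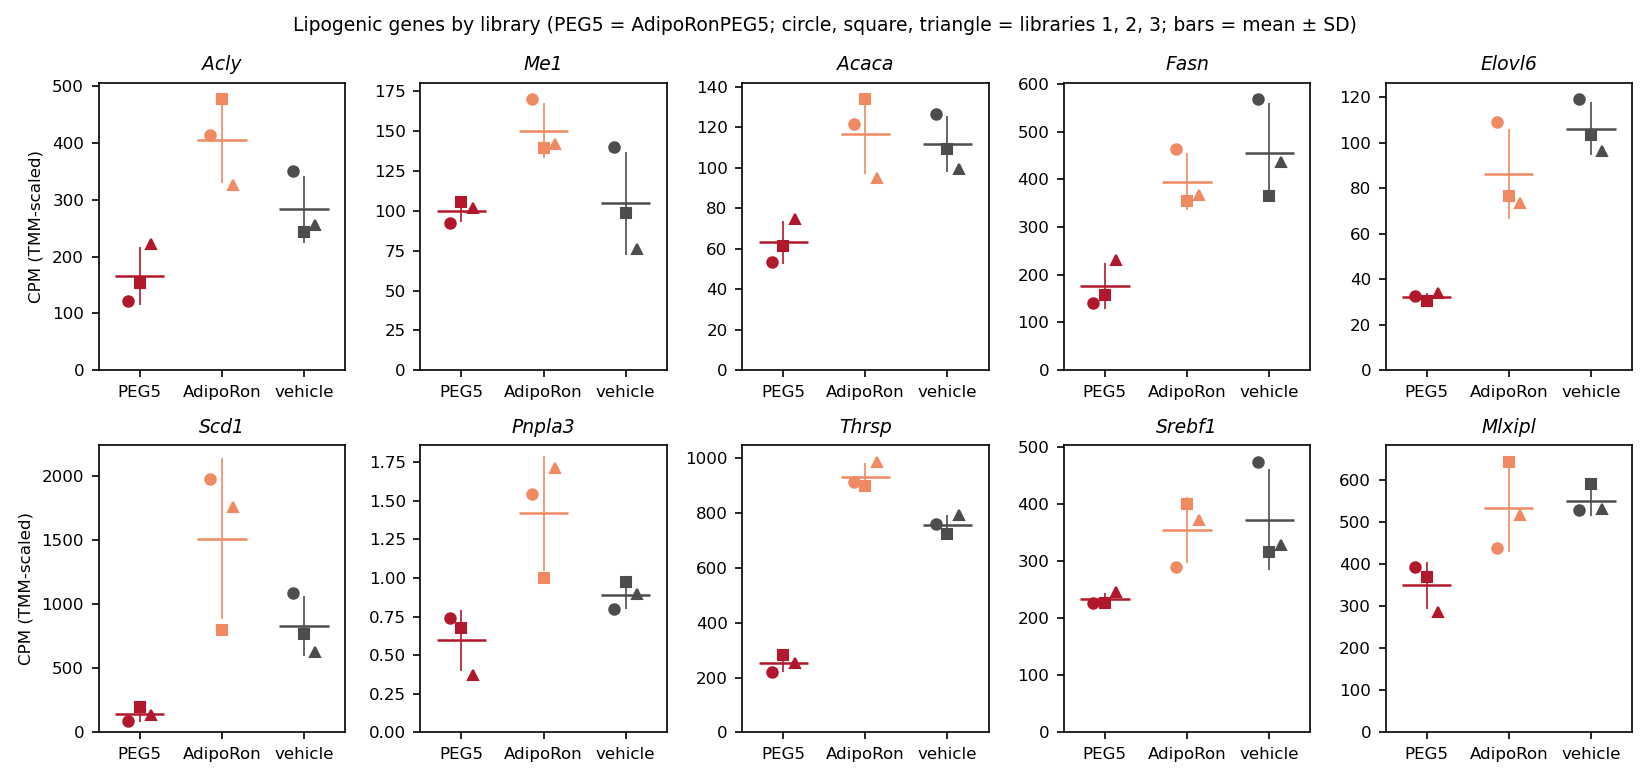
CPM (TMM-scaled, axes from 0) of the 10 genes in each library of AdipoRonPEG5, AdipoRon and vehicle livers, with mean and SD of 3 libraries. The AdipoRonPEG5 points lie below all vehicle points in every panel but that of Me1, and below all AdipoRon points in every panel.

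The enzymes that feed the pathway differed from each other. Acly, the ATP citrate lyase that frees acetyl-CoA from citrate, was at 122, 153 and 222 CPM in AdipoRonPEG5 livers, 415, 478 and 327 CPM in AdipoRon livers and 352, 243 and 256 CPM in vehicle livers. All AdipoRonPEG5 libraries were below all others, and the AdipoRon and vehicle ranges overlapped. Acly was lower with AdipoRonPEG5 than with vehicle (log2 fold change -0.78 ± 0.22 (SE), edgeR adjusted p = 0.0339). That call ended when AdipoRonPEG5 1 (adjusted p = 0.102), AdipoRonPEG5 2 (0.113) or vehicle 1 (0.107) was left out, with robust dispersion (0.0744), with a replicate block (0.0749) and without AdipoRonPEG5 1 and vehicle 3 together (0.0799); over the 20 alternatives the adjusted p ran from 0.00233 to 0.113, and the direction did not change. Against vehicle, AdipoRon gave a log2 fold change of 0.52 ± 0.22 (adjusted p = 0.195).

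Me1, the cytosolic malic enzyme that supplies NADPH for the synthase, was the exception among the 10. It was at 92.3, 105 and 102 CPM in AdipoRonPEG5 livers, 170.0, 139 and 142 CPM in AdipoRon livers and 139.8, 98.9 and 76.0 CPM in vehicle livers. The AdipoRonPEG5 libraries lay inside the vehicle range, which was the widest relative to its mean of the 3 groups (coefficient of variation 6.80%, 11.4% and 30.8%, AdipoRonPEG5, AdipoRon and vehicle). The log2 fold change of AdipoRonPEG5 against vehicle was -0.08, with a 95% interval of -0.47 to 0.32 (edgeR adjusted p = 0.815), and 0.19 without vehicle 1. For AdipoRon against vehicle it was 0.51 ± 0.18 (adjusted p = 0.122); without vehicle 1 it was 0.77 and passed (adjusted p = 0.024, range over the alternatives 0.024 to 0.312).

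The pair of enzymes that build palmitate were both lower with AdipoRonPEG5. Acaca, acetyl-CoA carboxylase 1, makes malonyl-CoA; it was at 53.4, 61.5 and 74.5 CPM in AdipoRonPEG5 livers, 122, 134 and 94.9 CPM in AdipoRon livers and 127, 109 and 99.5 CPM in vehicle livers. No AdipoRonPEG5 library reached the range of the others, and AdipoRon and vehicle livers covered nearly the same range. The log2 fold change was -0.83 ± 0.15 for AdipoRonPEG5 against vehicle (edgeR adjusted p = 0.0045) and 0.06 ± 0.15 for AdipoRon against vehicle (adjusted p = 0.846, interval -0.26 to 0.39).

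Fasn, the fatty acid synthase, was at 140.2, 158 and 231 CPM in AdipoRonPEG5 livers, 464, 355 and 367 CPM in AdipoRon livers and 568, 365 and 436 CPM in vehicle livers. The AdipoRonPEG5 libraries were all lowest, and AdipoRon and vehicle overlapped. Fasn was 2.59-fold lower with AdipoRonPEG5 than with vehicle (log2 fold change -1.37 ± 0.21, edgeR adjusted p = 0.00178). AdipoRon against vehicle gave -0.21 ± 0.20 (interval -0.65 to 0.24, adjusted p = 0.597).

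The enzymes that finish the fatty acid chain, Elovl6 and Scd1, had the largest fold changes of the enzymes. Elovl6 elongates palmitate to stearate and was at 32.7, 30.4 and 33.9 CPM in AdipoRonPEG5 livers, 109, 76.5 and 73.6 CPM in AdipoRon livers and 119, 103 and 96.4 CPM in vehicle livers. The AdipoRonPEG5 libraries lay close together (coefficient of variation 5.48%) and far below the others. Elovl6 was 3.29-fold lower with AdipoRonPEG5 than with vehicle (log2 fold change -1.72 ± 0.15, edgeR adjusted p = 9.03e-05). For AdipoRon against vehicle the log2 fold change was -0.30 ± 0.14 (adjusted p = 0.239); without AdipoRon 1, the highest library of its group, it was -0.51 and passed (adjusted p = 0.0303, range over the alternatives 0.0303 to 0.494).

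Scd1, the delta-9 desaturase that turns stearate into oleate, was at 88.7, 200.3 and 134 CPM in AdipoRonPEG5 livers, 1977, 800.3 and 1763 CPM in AdipoRon livers and 1092, 768 and 630.3 CPM in vehicle livers. The AdipoRonPEG5 libraries were apart from all others; AdipoRon 2 sat within the vehicle range while AdipoRon 1 and AdipoRon 3 were above it. Scd1 had the largest fold change of the 10 genes with AdipoRonPEG5 against vehicle, 5.88-fold lower (log2 fold change -2.56 ± 0.37, edgeR adjusted p = 0.00153), and also one of the widest spreads, with a coefficient of variation of 39.8% in AdipoRonPEG5, 41.4% in AdipoRon and 28.5% in vehicle livers. AdipoRon against vehicle gave 0.87 ± 0.35 with an interval of 0.09 to 1.64, which did not pass over all genes (adjusted p = 0.179).

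Of the regulators, Thrsp had the largest fold change. Thrsp, a nuclear and cytosolic protein that responds to thyroid hormone and carbohydrate and promotes lipogenesis, was at 220.5, 283 and 253 CPM in AdipoRonPEG5 livers, 913, 898 and 989 CPM in AdipoRon livers and 761, 722 and 792 CPM in vehicle livers. The 3 groups did not overlap: every AdipoRon library was above every vehicle library, and every AdipoRonPEG5 library far below. Thrsp was 3.01-fold lower with AdipoRonPEG5 than with vehicle (log2 fold change -1.59 ± 0.11, edgeR adjusted p = 1.9e-05). With AdipoRon it was at 0.30 ± 0.10 (adjusted p = 0.12), which passed with total-count scaling (0.40, adjusted p = 0.0469, range over the alternatives 0.0469 to 0.304).

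Srebf1, counted as 1 gene for both its SREBP-1a and SREBP-1c transcripts, was at 227, 226 and 245 CPM in AdipoRonPEG5 livers, 289, 400.4 and 372 CPM in AdipoRon livers and 474, 315 and 328 CPM in vehicle livers. The AdipoRonPEG5 libraries were all lowest and the tightest group (coefficient of variation 4.61%, against 23.7% in vehicle livers); AdipoRon and vehicle overlapped. Srebf1 was lower with AdipoRonPEG5 than with vehicle (log2 fold change -0.68 ± 0.16, edgeR adjusted p = 0.0159). That call ended without AdipoRonPEG5 1 (adjusted p = 0.0506) or AdipoRonPEG5 2 (0.0603), in a range of 0.000421 to 0.0603 over the alternatives. The log2 fold change of AdipoRon against vehicle was -0.07 ± 0.16 (adjusted p = 0.838).

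Mlxipl, the gene of ChREBP, was at 393, 369 and 286 CPM in AdipoRonPEG5 livers, 439, 644 and 517 CPM in AdipoRon livers and 528, 589.8 and 529.8 CPM in vehicle livers. AdipoRonPEG5 libraries were again below all others, and AdipoRon libraries lay on both sides of the narrow vehicle range. Mlxipl was lower with AdipoRonPEG5 than with vehicle (log2 fold change -0.65 ± 0.15, edgeR adjusted p = 0.0139). The call ended without AdipoRonPEG5 3 (adjusted p = 0.0532) or vehicle 2 (0.055), in a range of 0.000222 to 0.055 over the alternatives. For AdipoRon against vehicle the log2 fold change was -0.04 ± 0.15 (adjusted p = 0.899).

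Pnpla3, a lipase and acyltransferase relative found on lipid droplets, had few counts. There were 12, 13 and 6 counts in AdipoRonPEG5 livers, 25, 18 and 25 counts in AdipoRon livers and 31, 13 and 12 counts in vehicle livers, which is 0.740, 0.675 and 0.370 CPM, 1.54, 1.0 and 1.71 CPM, and 0.797, 0.972 and 0.893 CPM in the same order. By depth, 3 counts correspond to 0.076 to 0.215 CPM. The groups did not overlap in CPM, with AdipoRonPEG5 lowest and AdipoRon highest, but neither difference from vehicle passed: the log2 fold change was -0.54 with AdipoRonPEG5 (interval -1.32 to 0.24, edgeR adjusted p = 0.335) and 0.69 with AdipoRon (interval -0.02 to 1.39, adjusted p = 0.239).

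**Figure D2:**
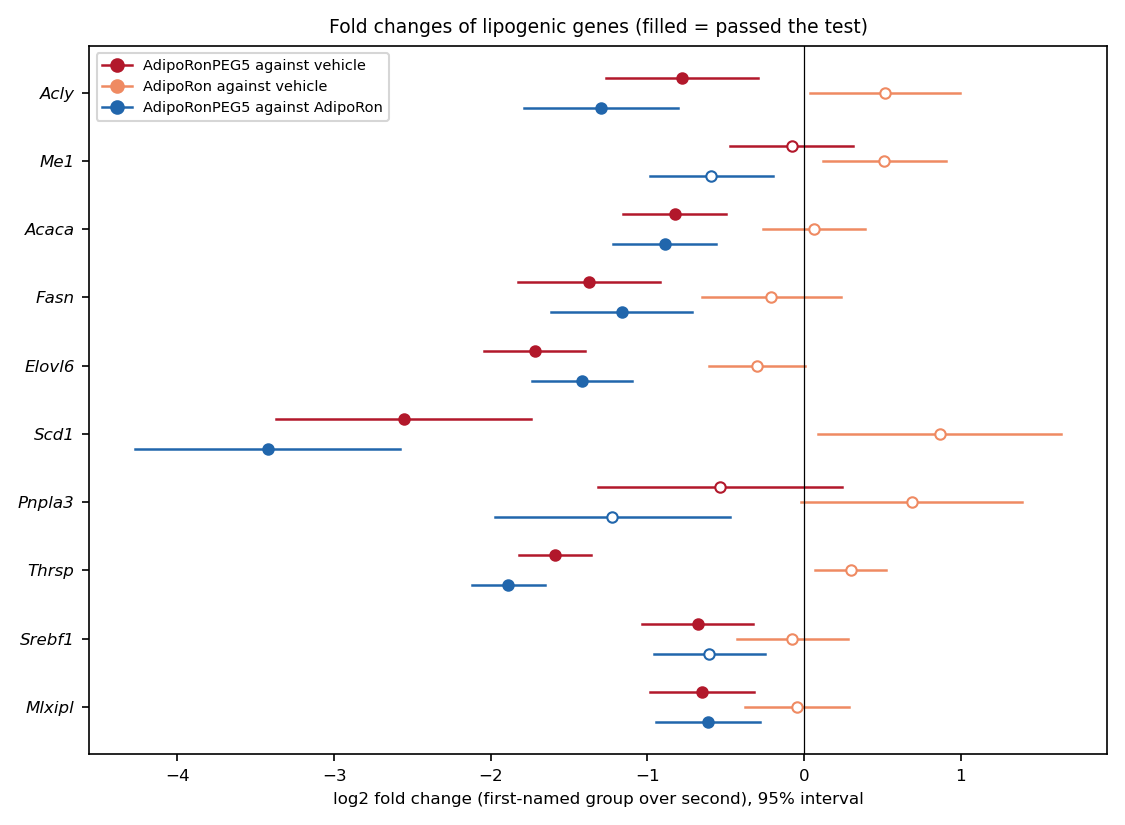
Log2 fold changes of the 10 genes with 95% intervals, for each compound against vehicle and for AdipoRonPEG5 against AdipoRon, filled where the gene passed edgeR's test. With AdipoRonPEG5 8 points against vehicle and 7 against AdipoRon are filled, all left of 0, from -2.56 for Scd1 to -0.65 for Mlxipl against vehicle; no point of AdipoRon against vehicle is filled.

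With AdipoRon against vehicle, 0 of the 10 genes passed in edgeR's test, and 4 had an unadjusted p under 0.05 (Scd1, Acly, Thrsp and Me1, all with values above 0). DESeq2 and limma-voom also called 0 of the 10. Over all genes tested 1.40% passed as lower and 3.80% as higher (184 and 500 genes; 64 and 883 with total-count scaling). The median log2 fold change was 0.18 over the 10 genes and 0.0057 over all genes. Every AdipoRon library lay above every vehicle library for 2 genes, Thrsp and Pnpla3, and below for none, against 14.4% and 12.4% of all genes tested.

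The PEGylated analog was next compared with its parent over the 10 genes. The labels give 1 figure for dose and 1 course for all groups, PBS included, so that equal dosing of the compounds is not settled. With AdipoRonPEG5 7 of the 10 genes were lower than with AdipoRon and none was higher, where 2.71% of all genes tested passed as lower and 2.68% as higher. Every AdipoRonPEG5 library lay below every AdipoRon library for all 10 genes, a pattern seen for 14.3% of all genes tested, and above for none, seen for 13.9%. This comparison and the one with vehicle use the same AdipoRonPEG5 libraries, so that their values are not independent.

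Between the compounds Scd1 differed most, at 141 ± 56.1 CPM with AdipoRonPEG5 and 1514 ± 627 CPM with AdipoRon (SD, n = 3), 10.7-fold lower (log2 fold change -3.42 ± 0.38, interval -4.27 to -2.58, edgeR adjusted p = 0.00109). Thrsp averaged 252 ± 31.3 CPM with AdipoRonPEG5 and 933 ± 48.8 CPM with AdipoRon (log2 fold change -1.89 ± 0.11, adjusted p = 5.94e-06). The other calls were Elovl6 at -1.42 ± 0.14, Acly at -1.30 ± 0.22, Fasn at -1.16 ± 0.20, Acaca at -0.89 ± 0.15 and Mlxipl at -0.61 ± 0.15. Mlxipl had an adjusted p of 0.0424 and lost its call when AdipoRonPEG5 1, AdipoRonPEG5 2, AdipoRonPEG5 3, AdipoRon 2, AdipoRon 3 or vehicle 2 was left out and with a replicate block (adjusted p over the alternatives 0.00199 to 0.137). Acly and Fasn lost theirs without AdipoRonPEG5 2 (adjusted p = 0.054 and 0.06; ranges 1.36e-07 to 0.054 and 5.77e-07 to 0.06), which left 4 of the 10 called.

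The 3 genes that did not pass between the compounds were Srebf1 (log2 fold change -0.60, interval -0.96 to -0.25, edgeR adjusted p = 0.0553), Me1 (-0.59, interval -0.98 to -0.20, adjusted p = 0.0842) and Pnpla3 (-1.22, interval -1.98 to -0.47, adjusted p = 0.0636). None of these intervals reaches 0, so that the compounds are not shown to act alike on these genes. Srebf1 passed under 7 of the 20 alternatives and Me1 under 5, DESeq2 among them for both (adjusted p = 0.00577 and 0.0213; ranges over the alternatives 0.00577 to 0.163 and 0.0104 to 0.21). Among these alternatives were the fits without vehicle 1, with an adjusted p of 0.0187 for Srebf1 and 0.019 for Me1, and without vehicle 3, with 0.0374 for Srebf1 and 0.0193 for Me1; without AdipoRon 1 Srebf1 was at 0.0447.

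On the length-scaled level, the FPKM as deposited, the genes stood in nearly the same order in AdipoRon and vehicle livers. Thrsp was the most abundant transcript of the 10 in each group, with means of 201, 750.1 and 569 FPKM in AdipoRonPEG5, AdipoRon and vehicle livers, and Pnpla3 the least, at 0.131, 0.314 and 0.183 FPKM. In vehicle livers Scd1 (165 FPKM) and Mlxipl (145 FPKM) came next and overlapped in range; then came Srebf1, Acly, Fasn and Me1 (83.3 to 30.7 FPKM, each overlapping its neighbour), Elovl6 at 17.1 FPKM and Acaca at 11.3 FPKM.

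In AdipoRonPEG5 livers Scd1 ranked 6, at 29.7 FPKM, where it ranked 2 in AdipoRon livers, at 322 FPKM, and 2 in vehicle livers. There Mlxipl (97.7 FPKM) and Srebf1 (55.0 FPKM) ranked 2 and 3 with no overlap between them, while Acly, Me1, Scd1 and Fasn (37.8 to 18.6 FPKM) each overlapped the next, and Acaca (6.72 FPKM) came before Elovl6 (5.51 FPKM). Thrsp made up 39.8% to 43.3% of the summed FPKM of the 10 genes in AdipoRonPEG5 livers, 46.5% to 52.0% in AdipoRon livers and 46.1% to 55.1% in vehicle livers. The 10 genes together took 0.139% to 0.165% of all counts in AdipoRonPEG5 libraries, 0.401% to 0.508% in AdipoRon libraries and 0.301% to 0.410% in vehicle libraries, with no overlap between AdipoRonPEG5 and the others.

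**Figure D3:**
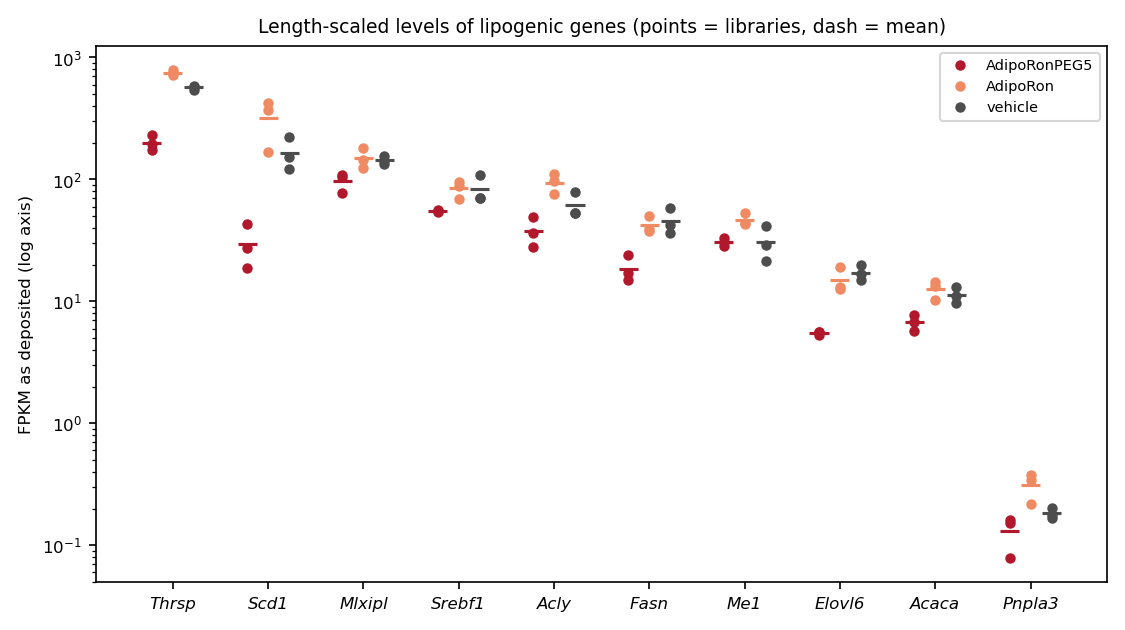
FPKM as deposited (log axis) of the 10 genes in each library, ordered by their mean in vehicle livers, with a dash at each group's mean. The mean of Scd1 lies below that of Mlxipl in AdipoRonPEG5 livers (29.7 and 97.7 FPKM) and above it in AdipoRon livers (322 and 150.3 FPKM) and vehicle livers (165 and 145 FPKM), where single libraries overlap, while Thrsp stays highest in all 3 groups.

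Within groups the genes did not all order the libraries alike. Vehicle 1, the deepest library with 39473195 counts against 13942322 to 18508950 in the other 8, was the highest vehicle library for 7 of the 10 genes. AdipoRonPEG5 1 was the lowest of its group for 6 genes (Acaca, Acly, Fasn, Me1, Scd1 and Thrsp), and AdipoRonPEG5 3 the highest for 5. In AdipoRonPEG5 3 the enzymes Acly, Acaca, Fasn and Elovl6 and the regulator Srebf1 were highest, and the regulator Mlxipl and Pnpla3 were lowest. AdipoRon 2 was the lowest of its group for 5 genes, Scd1 among them, and the highest for Acaca, Acly, Mlxipl and Srebf1.

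Saa1, a serum amyloid gene of the acute phase, reached 1952 CPM in AdipoRonPEG5 1 and 4959 CPM in vehicle 3, and between 45.1 and 497 CPM in the other libraries. With both of these libraries left out, 7 of the 10 genes stayed lower with AdipoRonPEG5 than with vehicle, and Acly, at -0.66, did not pass (adjusted p = 0.0799). Over all genes the same fit called 1945, of which 832 were lower.

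Over the 9 libraries, the likeness of a gene to Scd1, Fasn and Srebf1 was taken as the root mean square difference of their mean-centred log2 CPM, among 11120 named genes at a mean of 1 CPM or more. Nearest to Scd1 were Cyp3a11 (0.577), a cytochrome P450 that oxidizes drugs and steroids, Chrna4 (0.758) and Cfd (0.826). Chrna4 and Cfd averaged 0.221 and 0.162 CPM in AdipoRonPEG5 livers, under the 0.5 CPM added before the log, so that their distances depend on that offset. Nearest to Fasn were Cep85l (0.243), Yam1 (0.271) and Fam214a (0.294), and nearest to Srebf1 were Osbpl8 (0.128), Gpd2 (0.139) and Hnf1aos1 (0.150).

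Within the 10 genes the nearest to Fasn was Elovl6 (0.239), about as near as Cep85l, the nearest to Srebf1 was Mlxipl (0.238), and the nearest to Scd1 was Thrsp (0.752). Scd1 was thus nearer to Cyp3a11 than to any of the other lipogenic genes. Cyp3a11 was, however, the nearest of 11120 candidates, and Thrsp the nearest of only the other lipogenic genes, so that these distances are not set on equal terms. For AdipoRon against vehicle the log2 fold change was -0.11 for Cyp3a11 and 0.87 for Scd1. Cyp3a11 averaged 40.6, 493 and 529.9 CPM in AdipoRonPEG5, AdipoRon and vehicle livers.

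Close relatives of the 10 genes were set beside them for AdipoRonPEG5 against vehicle. Scd2, the desaturase of brain and early liver, was at 5.11 ± 1.70 CPM with AdipoRonPEG5 and 2.13 ± 0.750 CPM with vehicle (log2 fold change 1.18 ± 0.28, edgeR adjusted p = 0.0156), opposite to Scd1 and at a far lower count; its call ended without AdipoRonPEG5 3 (adjusted p = 0.063) or vehicle 2 (0.0555), in a range of 0.00153 to 0.063. Scd1 and Scd2 are similar in sequence, and the sources used here do not give how reads that match both were counted. Scd3 and Scd4 had 2 counts and 1 count over all libraries.

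Acacb, the mitochondrial carboxylase whose malonyl-CoA restrains fat oxidation, was at 34.7 ± 3.71 CPM with AdipoRonPEG5 and 39.1 ± 9.61 CPM with vehicle (log2 fold change -0.16, interval -0.85 to 0.52, edgeR adjusted p = 0.77). Elovl5, which elongates polyunsaturated chains, was at -0.71 (interval -1.21 to -0.20, adjusted p = 0.0588). Srebf2, the cholesterol-directed sister of Srebf1, was at 0.02 (interval -0.30 to 0.33, adjusted p = 0.951). Mlx, the partner of ChREBP, was at -0.13 (interval -0.31 to 0.06, adjusted p = 0.329), Mid1ip1, the paralog of Thrsp, at -0.28 (interval -0.65 to 0.09, adjusted p = 0.29), and the mitochondrial malic enzyme Me2 at 1.06 (interval 0.26 to 1.86, adjusted p = 0.0676). Whether any of these differed from its relative among the 10 genes was not tested.

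Around the pathway, AdipoRonPEG5 against vehicle gave a mixed picture, listed by role. Over all genes tested 9.55% passed as higher and 7.63% as lower. Lists with only 1 or 2 calls in a direction are not set apart from these shares. Of 15 genes that supply carbon and NADPH, 3 were higher and 2 lower (median log2 fold change 0.12; 4 to 9 called under the alternatives). The higher ones were enzymes of the pentose phosphate pathway, a further source of NADPH: Pgd at 0.71 ± 0.12 (edgeR adjusted p = 0.0028), G6pdx at 0.82 ± 0.15 (0.0053) and Tkt at 0.52 ± 0.11 (0.0085). G6pdx and Pgd encode the NADPH-forming steps and Tkt a later, non-oxidative one. Me1, the NADPH source among the 10 genes, did not pass. With AdipoRon against vehicle Pgd was also higher, at 0.48 ± 0.12 (edgeR adjusted p = 0.0424), the only call of the 15 (0 to 2 under the alternatives). In that comparison G6pdx was at 0.45 ± 0.16 (0.126) and Tkt at 0.13 ± 0.11 (0.544). Between the compounds none of the 15 was higher and 1 was lower.

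Of 15 tested genes of elongation and desaturation beyond the 10, 2 were higher and 2 lower (2 to 8 called under the alternatives); Elovl2, an elongase of polyunsaturated chains, was at -0.64 ± 0.09 (edgeR adjusted p = 0.00163) and Elovl1, an elongase of very long saturated chains, at 0.65 ± 0.10 (0.00238). Of 14 genes of triglyceride assembly, 1 was higher and 2 lower (2 to 4 called). Lpin1, a phosphatidate phosphatase and coregulator, had 170.3 ± 70.2 CPM with AdipoRonPEG5 and 595 ± 159 CPM with vehicle (log2 fold change -1.80 ± 0.35, adjusted p = 0.00602), and Dgat2, which completes triglyceride, was at -0.53 ± 0.11 (0.00901). Of 8 partners of acetyl-CoA carboxylase 1 was higher and none lower (0 to 1 called under the alternatives), and of 15 tested lipid droplet genes 1 was higher and none lower (0 to 3 called).

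Of 16 genes that process SREBP or act with it, 3 were lower and none higher, Lpin1 again among them (2 to 4 called under the alternatives). Insig2, which holds SREBP in the endoplasmic reticulum, was at -0.67 ± 0.11 (edgeR adjusted p = 0.00329). Of 14 genes of the liver X receptor axis, 2 were higher and 2 lower (1 to 4 called), with the cholesterol exporter Abcg1 at 1.43 ± 0.22 (adjusted p = 0.00178). Abcg1 averaged 6.89, 5.51 and 2.56 CPM in AdipoRonPEG5, AdipoRon and vehicle livers. With AdipoRon against vehicle 2 of these 14 were higher and 0 lower (0 to 3 called). Between the compounds 0 of the 14 passed. Of 21 cholesterol synthesis genes 1 was lower and none higher (0 to 5 called), with a median of -0.04 where the 10 lipogenic genes had -0.80.

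Of 14 partners and targets of ChREBP, 4 were lower and none higher (2 to 5 called under the alternatives). Gckr, a regulatory protein of liver glucose metabolism, was at -0.74 ± 0.10 (edgeR adjusted p = 0.000955), and Khk, which phosphorylates fructose, at -0.67 ± 0.10 (0.00167). Pklr, the liver pyruvate kinase, differed between the compounds in direction: it averaged 215 ± 37.8 CPM with AdipoRonPEG5, 516 ± 30.5 CPM with AdipoRon and 308 ± 34.8 CPM with vehicle. Its log2 fold change was 0.74 ± 0.13 for AdipoRon against vehicle (adjusted p = 0.0108) and -1.26 ± 0.13 for AdipoRonPEG5 against AdipoRon (adjusted p = 0.000654). For AdipoRonPEG5 against vehicle it was -0.52 ± 0.13 (adjusted p = 0.0212), a call that ended without AdipoRonPEG5 1 (0.0676), AdipoRonPEG5 2 (0.0707), vehicle 1 (0.0626) or vehicle 2 (0.0731), in a range of 0.00154 to 0.0731.

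Of 18 genes of insulin and fasting responses, 5 were lower and none higher (median -0.34; 3 to 7 called under the alternatives). Pck1, the gluconeogenic enzyme that insulin represses, was at 1778 ± 608 CPM with AdipoRonPEG5 and 4662 ± 1074 CPM with vehicle (log2 fold change -1.39 ± 0.28, edgeR adjusted p = 0.00729). Angptl4, a secreted inhibitor of lipoprotein lipase that rises in fasting, was at -0.82 ± 0.18 (adjusted p = 0.00984).

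Between the compounds Gckr was at -0.72 ± 0.10 (edgeR adjusted p = 0.00347), Khk at -0.65 ± 0.10 (0.00622), Elovl2 at -0.73 ± 0.09 (0.00274) and Insig2 at -0.71 ± 0.11 (0.00834). These calls held under all 20 alternatives. Over the ChREBP list 4 of 14 genes were lower with AdipoRonPEG5 than with AdipoRon (3 to 6 called under the alternatives). Over the elongation and desaturation list 4 of 15 were lower and 1 higher (1 to 8 called). Of all genes tested 2.71% passed as lower and 2.68% as higher between the compounds.

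**Figure D4:**
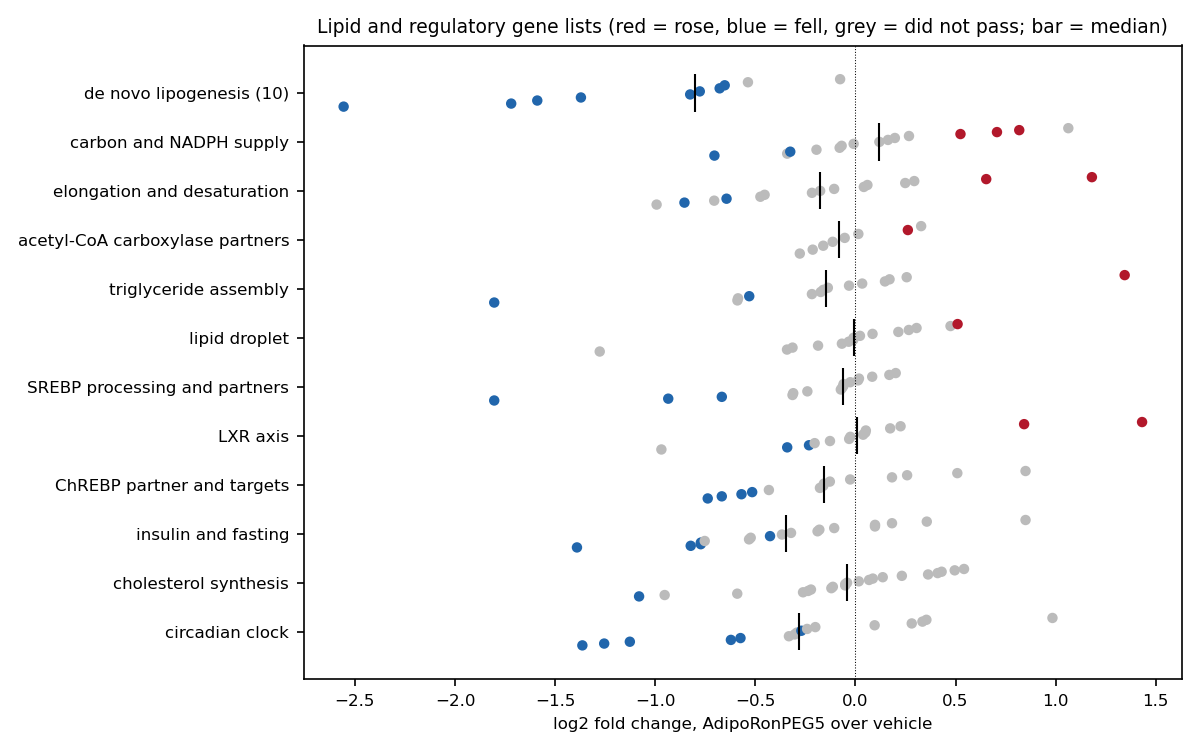
Log2 fold changes of AdipoRonPEG5 over vehicle for each tested gene of the 10 lipogenic genes and 11 further lists, red where higher and blue where lower by edgeR's test, grey where the gene did not pass, with a bar at the list's median. The median of the 10 lipogenic genes is -0.80, and those of the other lists run from -0.34 for insulin and fasting genes to 0.12 for carbon and NADPH supply.

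Other measures also differed between groups or libraries, not all of them in the pattern of the lipogenic genes. Their part in the result was not tested. Of 17 clock genes, 6 of 16 tested were lower with AdipoRonPEG5 than with vehicle and none higher (5 to 7 called under the alternatives); their summed level was 893 to 922 CPM in AdipoRonPEG5, 1147 to 1205 CPM in AdipoRon and 1154 to 1221 CPM in vehicle livers. Per1 was at -1.13 ± 0.15 (edgeR adjusted p = 0.00114), Nr1d1 at -1.36 ± 0.20 (0.00164), Ciart at -1.25 ± 0.21 (0.00281) and Per2 at -0.62 ± 0.11 (0.00408). In AdipoRonPEG5, AdipoRon and vehicle livers Per1 averaged 49.2, 75.7 and 108 CPM and Nr1d1 25.7, 37.8 and 66.1 CPM. Ciart averaged 22.5, 42.7 and 53.8 CPM and Per2 48.8, 77.6 and 75.0 CPM in the same order. With AdipoRon against vehicle 1 of the 16 was lower and none higher (0 to 2 called under the alternatives). Over all genes tested 1.40% passed as lower in that comparison. Lipogenic transcripts are known to vary over the day, and the hour of harvest is not in the labels.

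All 12 macrophage markers were higher with AdipoRonPEG5 than with vehicle, and 11 of 12 with AdipoRon, with summed levels of 781 to 790.4 CPM in AdipoRonPEG5, 490.2 to 859 CPM in AdipoRon and 203 to 294 CPM in vehicle livers. Of the hepatocyte markers, 9 of 10 symbols were found; 3 of 9 were lower with AdipoRonPEG5 than with vehicle (1 to 3 under the alternatives) and none higher, and their sums were 93227 to 102751 CPM in AdipoRonPEG5, 87926 to 94883 CPM in AdipoRon and 103085 to 111738 CPM in vehicle livers. The lower ones were the apolipoproteins Apoa2 at -0.55 (edgeR adjusted p = 0.00869) and Apoa1 at -0.65 (0.0155), and the protease inhibitor Serpina1a at -0.43 (0.0246). The call of Apoa1 ended without AdipoRonPEG5 1 (0.0656) or AdipoRonPEG5 2 (0.0605), and that of Serpina1a without AdipoRonPEG5 1 (0.0739), AdipoRonPEG5 2 (0.0726), AdipoRonPEG5 3 (0.0724) or vehicle 2 (0.0756); both also ended without AdipoRonPEG5 1 and vehicle 3 together (0.0616 for Apoa1 and 0.0946 for Serpina1a). Over the alternatives the adjusted p ran from 0.000153 to 0.0656 for Apoa1 and from 0.00109 to 0.0946 for Serpina1a. Albumin (Alb), the defining marker of the labelled tissue, averaged 55802, 49156 and 54971 CPM in AdipoRonPEG5, AdipoRon and vehicle livers and was not called. In bulk tissue, fewer cells of a type and less RNA per cell cannot be told apart.

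Adipose tissue also expresses the lipogenic genes. The 10 adipocyte markers summed to 14.1 to 21.2 CPM in AdipoRonPEG5, 17.9 to 24.5 CPM in AdipoRon and 20.9 to 25.5 CPM in vehicle livers. Of the defining ones, Lep and Ucp1 were at 0 in all libraries, Adipoq and Plin1 had 4 counts each in all and Retn 3, all 3 at 0 with AdipoRonPEG5. Most of the sum was Adrb3, at 13.3, 13.3 and 15.4 CPM in AdipoRonPEG5, AdipoRon and vehicle livers. Of 3 tested, 1 was lower with AdipoRonPEG5 than with vehicle, Cfd, whose call ended without any 1 of the AdipoRonPEG5 libraries or vehicle 1; it averaged 0.162, 2.98 and 2.73 CPM in AdipoRonPEG5, AdipoRon and vehicle livers, where Scd1 averaged 141, 1514 and 830.0 CPM. Acute phase genes summed to 10914 to 19000 CPM in AdipoRonPEG5, 7739 to 10230 CPM in AdipoRon and 7375 to 29152 CPM in vehicle livers. For AdipoRonPEG5 against vehicle none of 10 was called, and 8 were once AdipoRonPEG5 1 and vehicle 3 were left out. That fit called 1945 genes over all, 832 of them lower. In the libraries that remained the acute phase sums were 10914 and 10968 CPM with AdipoRonPEG5 and 7375 and 7776 CPM with vehicle. Of further markers, 3 of 6 tested lymphocyte genes were higher with AdipoRonPEG5 than with vehicle and 1 lower (1 to 4 called under the alternatives). These rest on few reads: the higher ones had 59, 116 and 130 counts over all 9 libraries and the lower one 253. Of stellate and endothelial genes 1 of 10 each was higher, where 9.55% of all genes tested were. In edgeR's test 0 of 6 cholangiocyte genes and 0 of 1 muscle gene passed. None of the pancreas genes was tested.

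**Figure D5:**
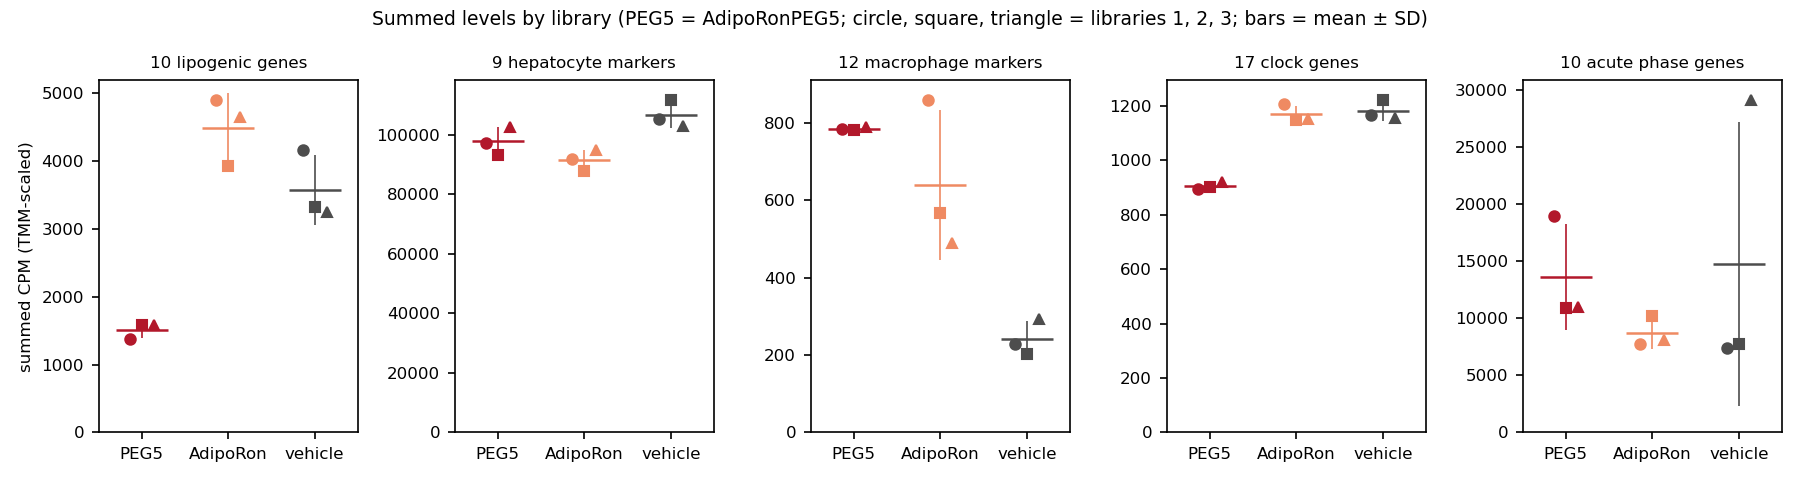
Summed CPM (TMM-scaled, axes from 0) of the 10 lipogenic genes and of marker lists in each library, with mean and SD of 3 libraries. The lipogenic sum is 1370 to 1588 CPM in AdipoRonPEG5, 3925 to 4900 CPM in AdipoRon and 3245 to 4162 CPM in vehicle livers; the macrophage sum is above vehicle in both treated groups, and the clock sum in AdipoRonPEG5 livers is below both other groups.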

How the data were processed

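Per the file headers, the deposited table gives read counts per gene for each of 9 libraries and FPKM computed by the authors beside them. Counts were used for every test, and FPKM as deposited, which divides by gene length and library total, only to compare levels between genes. The submitters' processing notes name HTSeq 0.6.1, edgeR, STAR 2.5, DESeq2 and TopHat, without saying which step each served; build, annotation, strand setting and filters are not given in the sources used here. Library totals were 39473195 counts in vehicle 1 and 13942322 to 18508950 in the others.

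A single quasi-likelihood model of the 3 group means was fitted to the 9 libraries (edgeR 4.0.16 in R 4.3.3, TMM scaling, filterByExpr, no robust setting); the filter kept 13151 of 21500 entries with a count. P-values were Benjamini-Hochberg adjusted over all genes tested, at a threshold of 0.05; SE and 95% intervals come from the same fit, and CPM are TMM-scaled. The script was tested on simulated data before use. Alternatives used DESeq2 1.42.0, limma 3.58.1 (voom), other scalings, filters and dispersions, a thinned vehicle 1, a replicate block and left-out libraries.

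The 10 genes, the lists and the tests were chosen with earlier results of these data known, so that no list's count is independent support. All 10 are named throughout; of each other list, up to 4 genes with the lowest adjusted p among those called in AdipoRonPEG5 against vehicle could be named, besides close relatives of the 10 and the 3 genes nearest in pattern to Scd1, Fasn and Srebf1. Alb was chosen after its values were seen. Log2 CPM for pattern distances had an offset of 0.5. A gene of the lists is counted but not reported by name here.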

Additional observations from a re-analysis of the deposited data

How the results depend on the processing

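Counts and fold changes were recomputed under 20 alternatives, 9 of which leave out 1 library; Pnpla3 has 19, since the filter at a mean of 1 CPM drops it. Of the 10 lipogenic genes, 6 to 8 were called with AdipoRonPEG5 against vehicle when 1 library was left out and 7 to 8 otherwise; with AdipoRon against vehicle it was 0 to 1 on leaving 1 out, and 1 with total-count scaling; between the compounds it was 4 to 9 on leaving 1 out and 6 to 9 otherwise. Over all genes, leaving 1 library out gave 1337 to 2334, 250 to 624 and 233 to 1032 calls in these comparisons, against 2260, 684 and 709. Counts over all genes moved by over 1.5 times without AdipoRonPEG5 2 (1348), AdipoRonPEG5 3 (1438) or vehicle 2 (1337) in AdipoRonPEG5 against vehicle, without AdipoRonPEG5 2 (450), AdipoRon 1 (367), AdipoRon 2 (292), vehicle 1 (279) or vehicle 2 (250) in AdipoRon against vehicle, and without any 1 library of either compound between the compounds (233 to 415). AdipoRon against vehicle gave 325 calls with only the 2 groups compared. DESeq2 called 994 and 991 genes in AdipoRon against vehicle and between the compounds.

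No direction of a called lipogenic gene changed under any alternative; of values that were not called, these changed sign. For AdipoRonPEG5 against vehicle Me1 ran from -0.26 to 0.19 on leaving 1 library out, and Srebf2 from -0.11 to 0.10; without vehicle 3 and AdipoRonPEG5 1 together Acacb was at 0.018 and Mid1ip1 at 0.00020. For AdipoRon against vehicle Acaca ran from -0.053 to 0.19 on leaving 1 out and was -0.017 without both of those libraries, Srebf1 ran from -0.19 to 0.13 and was 0.020 with total-count scaling, and Mlxipl ran from -0.21 to 0.078 and was 0.057 with total-count scaling. The cause was not tested.

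With a replicate block, 7 of the 10 genes were called with AdipoRonPEG5 against vehicle (Acly was not, adjusted p = 0.0749, range 0.00233 to 0.113), 0 with AdipoRon against vehicle and 6 between the compounds; over all genes the block gave 1763, 444 and 338 calls. Same-numbered libraries did not deviate together (correlations -0.30 to 0.087), so the numbers are not taken to pair them. Pnpla3, with 6 to 31 counts in a library, has wide intervals, and that it did not pass does not show that it did not differ.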
